A study of Caenorhabditis elegans with 2 samples.

Results

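Autosomal distal intergenic regions were the ZTF-11 regions on chromosomes I to V whose summit lay in no annotated gene, in no protein-coding promoter and not within 200 bp of a piRNA gene. Promoters were taken as the 1500 bp before and the 500 bp after each protein-coding 5′ end. The authors label their list from both replicates pooled as peaks and background, made as input for a later thresholding step. A region in it is therefore not by itself a binding site. Of its 20223 regions, 16790 were autosomal and 2587 of these met the rule. That is 12.8% of the pooled list and 15.4% of its autosomal regions. The rule used position only and no measured value.

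ChIP-seq of the tagged protein was done on whole L2 larvae of Caenorhabditis elegans, with the sexes pooled. The strain was OP236, genotype unc-119(ed3) III; wgIs236, in which an integrated transgene expresses ZTF-11 with a GFP-FLAG tag at its C terminus. The 2 biological replicates form 1 group, with no second condition to compare, so counts and shares are given with 95% Wilson intervals and without p-values. These intervals cover counting error only, and the read depth of each replicate is unknown. Each region carries the authors' signal score, which is relative to a control and has no stated unit, and the authors also deposited a smaller set of 210 regions thresholded on the irreproducible discovery rate (IDR), called thresholded below.

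ZTF-11 is the C. elegans member of the MYT1 family of zinc finger proteins, which repress transcription and are known for a role in the formation of neurons. MYT1 family zinc fingers are known to recognise DNA with an AAAGTT core. In the compact worm genome most regulatory sequence lies close to the 5′ end of genes, and intergenic sequence farther away holds enhancers, 3′ flanks, unannotated transcripts and genes of small RNAs. A whole larva mixes all tissues, so a site bound in few cells gives a weak score. Such a score cannot be told apart from weak binding in many cells or from background.

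The 11 members in the thresholded set have the highest scores of all members, and 10 of them are shown by sequence. The window between nlp-40 and rcor-1, which also holds AGAGAG, is not shown. The windows are the 101 bases centred on the summit, from the RefSeq sequence of build WBcel235, which has the coordinates of ce11. Capitals mark the GA repeat AGAGAG or the word GCGCGA on either strand. The core AAAGTT and the telomere repeat unit TTAGGC, which were also searched, were in none of these windows. The first 5 windows shown hold at least 1 marked motif and the next 5 hold none, so that 6 of the 11 hold AGAGAG.
Upstream of nhr-88, chrII:2974008-2974108, plus strand: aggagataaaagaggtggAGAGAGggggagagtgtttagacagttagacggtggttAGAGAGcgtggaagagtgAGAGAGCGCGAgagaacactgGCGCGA
Between sam-10 and mrpl-20, chrII:13335389-13335489, plus strand: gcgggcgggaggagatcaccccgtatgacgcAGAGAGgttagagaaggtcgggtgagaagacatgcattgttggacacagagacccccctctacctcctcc
Between Y105C5A.1 and pqn-76, chrIV:15570905-15571005, plus strand: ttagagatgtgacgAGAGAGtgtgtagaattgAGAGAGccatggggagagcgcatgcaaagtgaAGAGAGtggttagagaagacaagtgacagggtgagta
Between F38A6.4 and hif-1, chrV:20778386-20778486, plus strand: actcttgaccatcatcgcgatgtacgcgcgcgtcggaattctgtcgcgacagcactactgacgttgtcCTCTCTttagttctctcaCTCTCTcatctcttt
Between F54F12.1 and Y39E4B.6, chrIII:13061190-13061290, plus strand: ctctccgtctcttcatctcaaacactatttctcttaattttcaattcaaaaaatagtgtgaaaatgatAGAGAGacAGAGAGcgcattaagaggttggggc
Between irld-55 and Y37A1B.7, chrIV:14032691-14032791, plus strand: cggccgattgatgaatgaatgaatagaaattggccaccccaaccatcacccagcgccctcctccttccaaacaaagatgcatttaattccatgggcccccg
Beyond the 3′ end of nuo-4, chrIII:7155795-7155895, plus strand: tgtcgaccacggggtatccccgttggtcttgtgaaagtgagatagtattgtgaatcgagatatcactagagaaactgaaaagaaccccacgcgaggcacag
Beside sls-2.2 and ins-13, chrII:5543731-5543831, plus strand: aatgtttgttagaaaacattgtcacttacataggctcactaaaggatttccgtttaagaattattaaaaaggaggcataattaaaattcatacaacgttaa
Upstream of sup-26, chrIII:4282176-4282276, plus strand: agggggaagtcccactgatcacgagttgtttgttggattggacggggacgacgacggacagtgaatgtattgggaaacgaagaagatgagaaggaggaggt
Between tcc-1 and csn-1, chrV:17858086-17858186, plus strand: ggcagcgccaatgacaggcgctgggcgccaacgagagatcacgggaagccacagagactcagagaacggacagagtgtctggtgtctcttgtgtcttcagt

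The name distal fitted only part of the regions. The nearest protein-coding gene lay at a median of 2045 bp from the summit, with quartiles of 740 and 3360 bp and a maximum of 13409 bp. Of the 2587 regions, 540 (20.9%) lay within 500 bp of a protein-coding gene, and by construction of the rule all of these faced a 3′ end. The nearest gene end was a 3′ end for 1343 regions (51.9%). At the other extreme, 1315 regions (50.8%) were more than 2000 bp and 314 (12.1%) more than 5000 bp from any protein-coding gene. The nearest 5′ end was at a median of 2927 bp, and the gap between the flanking genes had a median length of 7443 bp.

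The regions followed the amount of sequence that the rule allowed. The allowed sequence was 12743990 bp, 15.4% of the 82553665 bp of the autosomes, the same share as that of the regions. This gave 203.0 regions per Mb of allowed sequence against 203.4 autosomal regions per Mb of autosome. By chromosome the density in allowed sequence was 228 per Mb on I, 180 on II, 218 on III, 210 on IV and 190 on V, and the density of all autosomal regions was 217, 187, 231, 216 and 177 in the same order. The outer parts of the chromosomes, the first and the last of 3 equal lengths, held 204 regions per Mb of allowed sequence and the inner part 200.6. Chromosome III had the largest gap between them, with 237 in the outer parts and 183 in the inner part, and on I the order was the opposite, with 217 and 251.

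Flanking genes pointed away from each other at 768 regions (29.7%), towards each other at 397 (15.3%) and in the same direction at 1421 (54.9%), and 1 region lay at a chromosome end. These arrangements made up 28.1%, 18.3% and 53.6% of the allowed sequence, so gaps between convergent genes held slightly fewer regions than their length. Median scores in the 3 arrangements lay between 11.7 and 11.9. The regions fell in 1577 gaps between neighbouring genes, of which 1037 (65.8%) held 1 region and 55 held 5 or more.

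Scores in distal intergenic regions were close to those elsewhere on the autosomes except at the top. The median pooled score was 11.8, with quartiles of 10.3 and 14.01 and a maximum of 59.4. Promoter regions had a median of 11.9, introns 11.6, exons 11.4 and all autosomal regions 11.7. The classes parted in the upper tail, where the 99th percentile was 26.1 for distal intergenic regions, 24.9 for introns, 23.2 for exons and 38.2 for promoters, and promoters reached 116. At the edge of the rule, 91 promoter regions between 1400 and 1500 bp upstream had a median score of 11.5 and 92 members between 1500 and 1600 bp one of 11.9. On the other edge, the 382 regions within 200 bp of a piRNA gene had a median of 11.5 and the 51 members between 200 and 300 bp one of 12.5.

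Few of the 2587 regions belonged to the thresholded set. Overlap by at least 1 bp was found for 14 regions (0.541%, interval 0.323 to 0.906), where the share over all autosomal regions was 0.977%. Rows of the thresholded set themselves were 11 of these (0.425%), against 0.840% of all autosomal regions. Promoter regions overlapped the thresholded set in 110 of 6054 cases (1.82%, 1.51 to 2.19), an interval above that of the distal intergenic regions. Introns were at 0.551% (0.386 to 0.786), and exons at 0.295% (0.135 to 0.641), both overlapping the distal intergenic interval, and none of the 382 regions near piRNA genes overlapped. On the X chromosome 24 of the 968 regions that met the same rule overlapped it (2.48%, 1.67 to 3.66), above the autosomal interval, with a median score of 11.7.

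The 11 thresholded members lay on all 5 autosomes, 1 on I, 3 each on II and III and 2 each on IV and V, and ranked from 53 to 207 among all pooled regions. All 11 were present in both replicates, with scores of 18.5 to 36.8 in replicate 1 and 10.9 to 27.5 in replicate 2. Since the set was thresholded on the IDR, agreement between replicates was part of how the 11 were chosen. Replicate 1 was higher at 10 of the 11, with a median ratio of 1.49 and a range of 0.742 to 2.43, on scales that are each list's own. The summits of the replicates lay a median of 23 and 30 bp from the pooled summit, and at most 132 and 91 bp. By position, 6 of the 11 summits were between 1600 and 3000 bp from the nearest coding 5′ end. The median of that distance over all members was 2927 bp, and their share in this range was not computed. Of the 11, 3 were more than 5000 bp from any coding gene, where 12.1% of all members were.

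**Figure D1:**
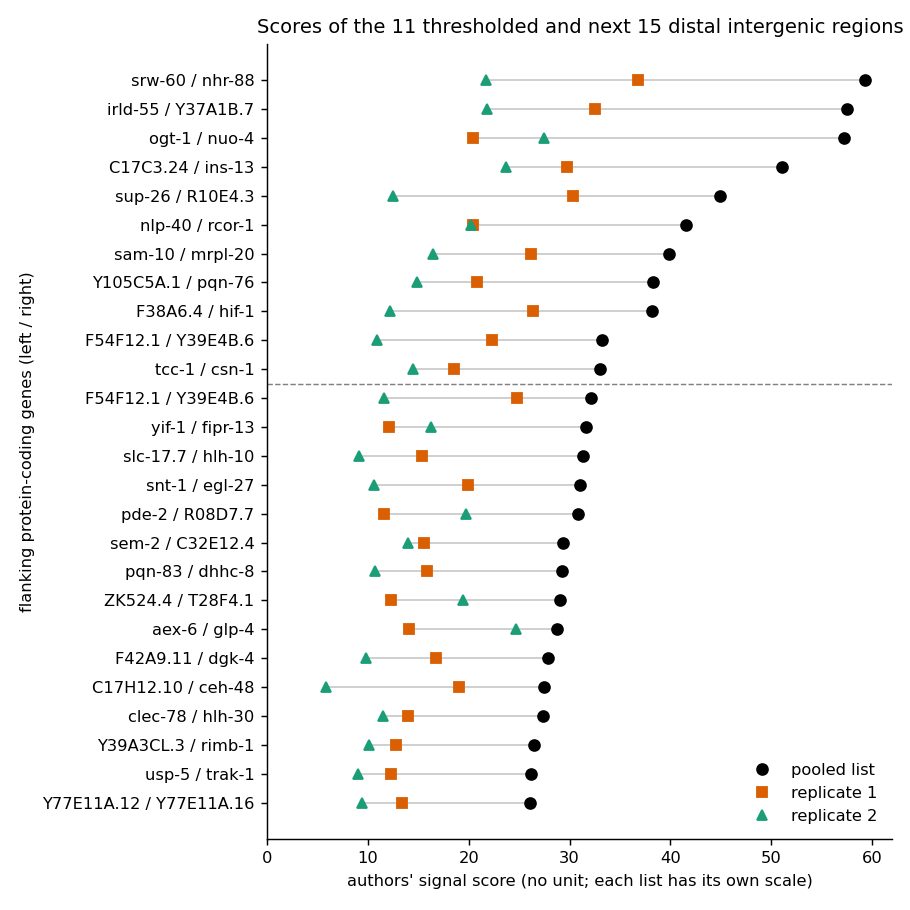
Authors' signal score (horizontal axis, no unit, each list on its own scale) of the 11 thresholded members, above the dashed line, and of the next 15 members by score, named by their flanking protein-coding genes. Circles are the pooled list, squares replicate 1 and triangles replicate 2. Pooled scores run from 59.4 to 26.1, and replicate 1 was higher than replicate 2 in 10 of the first 11 and 11 of the next 15 regions.

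The highest region, at chrII:2973870-2974245, was 2581 bp upstream of nhr-88, a gene of the nuclear hormone receptor family, with the chemoreceptor gene srw-60 on the other side at 12175 bp. Its pooled score was 59.4, and the replicates gave 36.8 and 21.7. Its window holds several copies of AGAGAG, 1 of them joined to GCGCGA, and has a GC content of 53.5%. Another region upstream of a gene lay at chrIII:4282038-4282413, 2002 bp from the 5′ end of sup-26, which encodes an RNA-binding protein. It had a pooled score of 44.97 with 30.4 in replicate 1 and 12.5 in replicate 2, the largest ratio between replicates among the 11. A weaker neighbour with its summit 241 bp away, scoring 25.97 in the pooled list with 7.03 and 8.72 in the replicates, overlapped the same thresholded region by 135 bp.

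Other thresholded members faced a 5′ end at a similar distance. The region at chrV:20778248-20778623 was 1971 bp from the 5′ end of hif-1, the hypoxia-inducible factor, and 3067 bp from that of F38A6.4, with a pooled score of 38.2 and replicate scores of 26.3 and 12.1. Between the divergent genes sam-10 and mrpl-20, a mitochondrial ribosomal protein gene, the region at chrII:13335251-13335626 scored 39.8 with 26.2 and 16.4 in the replicates. It had the highest GC content of the 11, 59.4%, and lay 1612 bp upstream of the microRNA gene mir-2215. The lowest of the 11, at chrV:17857948-17858323 with a pooled score of 32.999 and replicate scores of 18.5 and 14.5, was 2147 bp from the 5′ end of tcc-1 and 3232 bp from the 3′ end of csn-1, a subunit of the COP9 signalosome.

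Beyond 3′ ends, the region at chrIII:7155657-7156032 lay 181 bp from the 3′ end of nuo-4, a subunit of mitochondrial complex I, and 2048 bp from the 5′ end of ogt-1, the O-GlcNAc transferase. Its pooled score was 57.3, and with 20.4 and 27.5 in the replicates it was the exception in which replicate 2 was higher. On chromosome I the region at chrI:16836-17211 sat between 2 converging genes, 187 bp from the 3′ end of nlp-40, a neuropeptide precursor gene, and 460 bp from that of rcor-1, a CoREST family corepressor. It scored 41.5 in the pooled list and nearly the same in both replicates, 20.4 and 20.2.

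Among the 11 thresholded members, those beside ins-13 and irld-55 had an annotated small or noncoding RNA gene within 200 bp. Over all members, 4.41% had a gene annotated simply as noncoding RNA that close. The region at chrII:5543593-5543968, with a pooled score of 51.1 and replicate scores of 29.7 and 23.7, was 74 bp from sls-2.2, a gene of the SL2 spliced leader RNA that is added to downstream messages of operons, and 731 bp from the 3′ end of the insulin gene ins-13. It had the lowest GC content of the 11, 27.7%. A neighbour 243 bp away, 140 bp from sls-2.3, overlapped the same thresholded region but scored only 9.67 and was found in replicate 2 alone, at 4.33.

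Around the microRNA gene mir-52, a member of the mir-51 family, the thresholded member at chrIV:14032553-14032928 lay 1267 bp upstream of the annotated hairpin, 61 bp from an annotated noncoding RNA gene and 8113 bp from the nearest protein-coding gene, irld-55. It had a pooled score of 57.5, with 32.6 and 21.8 in the replicates. A separate thresholded region, no member because its summit is in the mir-52 gene, scored 60.2. A weak member on the other side of the hairpin, 9.59 in the pooled list and 12.7 in replicate 2 only, overlapped that region by 150 bp with summits 226 bp apart.

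The 2 remaining thresholded members were far from any coding gene. The region at chrIV:15570767-15571142 was 6528 bp from Y105C5A.1 and 8131 bp from pqn-76, and 280 bp from the piRNA gene 21ur-8889, so it stayed a member by a small margin. It scored 38.3, with 20.8 and 14.9 in the replicates. The region at chrIII:13061052-13061427 scored 33.2, with 22.3 and 10.9, and was 5798 bp from F54F12.1 and 9516 bp from Y39E4B.6. That gap of 15314 bp held 13 members, the highest count of any gap, of which 5 were in both replicates. At 0.849 members per kb it was less dense than the gap between yif-1 and fipr-13, at 1.14 per kb. The next member by score in the gap beside F54F12.1, 2157 bp from the 5′ end of Y39E4B.6, scored 32.1 with 24.8 and 11.6 in the replicates. It was the highest member outside the thresholded set.

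The next 15 members by score ran from 32.1 to 26.1 and were all present in both replicates, with 11.6 to 24.8 in replicate 1 and 5.83 to 24.7 in replicate 2. Their GC content ranged from 24.8% to 58.4%. At chrII:6816320-6816695 the summit was 75 bp beyond the 3′ end and 5545 bp from the 5′ end of snt-1, the synaptotagmin gene, with a pooled score of 31.03 and replicate scores of 19.9 and 10.6. The region 377 bp from the 3′ end of C17H12.10 and 2101 bp from the 5′ end of ceh-48, a ONECUT homeobox gene, scored 27.4 but differed most between replicates, with 19.05 and 5.83. Upstream of rimb-1, the RIM-binding protein gene of presynaptic sites, a region at 2290 bp scored 26.4 with 12.7 and 10.1.

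The region 2472 bp from the 5′ end of sem-2, a SoxC factor, scored 29.4 with 15.6 and 14.02 in the replicates. Beyond the 3′ end of hlh-30, the worm TFEB gene, a summit at 70 bp scored 27.3 with 13.9 and 11.5. Between aex-6, which encodes a Rab27 GTPase, and glp-4 a region scored 28.7, with 14.02 in replicate 1 and 24.7 in replicate 2. The region 3161 bp from the 5′ end of the phosphodiesterase gene pde-2 also favoured replicate 2, with 11.6 against 19.7 and a pooled score of 30.8. The remaining regions of this group lay beside fipr-13, slc-17.7, dhhc-8, T28F4.1, dgk-4, Y39E4B.6, trak-1 and Y77E11A.16. The one beside trak-1 was 3845 bp from the nearest coding gene, usp-5, and scored 26.2 with 12.2 and 9.05 in the replicates.

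Over all distal intergenic regions the replicates shared the strong regions and few of the weak ones. The summit lay in a region of replicate 1 for 60.4% of members and of replicate 2 for 53.0%. Both replicates held 649 members (25.1%, 23.5 to 26.8), and the share over all autosomal regions was 25.5%. Promoter regions were at 27.3% (26.2 to 28.5) and introns at 23.9% (22.8 to 25.1), intervals that overlap that of the members. Replicate 1 alone held 914 members (35.3%), replicate 2 alone 723 (27.9%) and neither 301 (11.6%). Each replicate list ended at 30000 regions, so a summit outside a list may still carry signal below it.

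Scores of the 2 replicates at the 649 shared members were weakly related. The median was 7.44 in replicate 1 and 6.18 in replicate 2, and replicate 1 was higher at 434 of the 649. The ratio of the replicates had a median of 1.21, with 10th and 90th percentiles of 0.685 and 2.09. Across these regions, which share libraries and are not independent, Pearson's r was 0.41 and Spearman's rho 0.15. Without the 11 thresholded members rho was 0.11 over 638 regions.

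**Figure D2:**
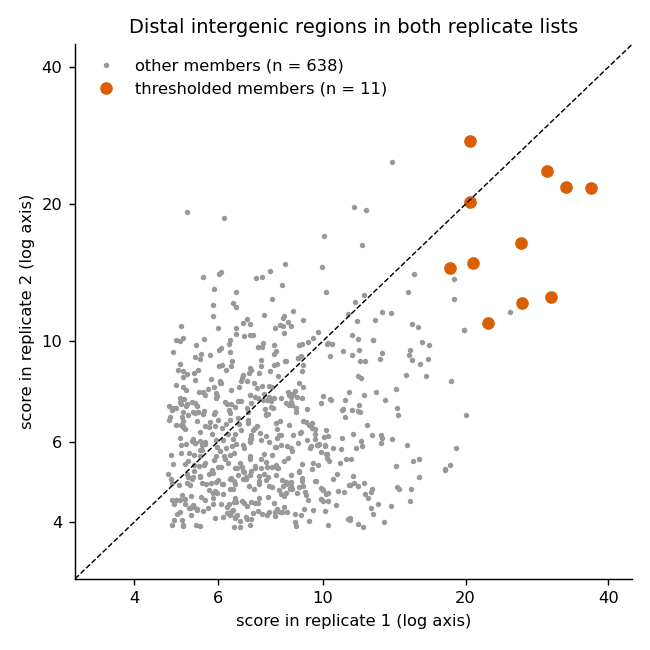
Score in replicate 1 against replicate 2 (both axes logarithmic) at the 649 members found in both lists, with the line of equality dashed. Large points are the 11 thresholded members, of which 10 lie below the line, and small points the other 638, which form a cloud without a clear slope.

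Agreement between replicates fell with score. Members were ordered by pooled score as the 11 thresholded rows, the next 100 (20.3 to 32.1), the next 400 (14.7 to 20.2), the next 1000 (11.3 to 14.7) and the remaining 1076 (9.17 to 11.3). The shares found in both replicates were 100%, 72%, 50.5%, 24.6% and 11.0% in that order. Since the pooled list is made from the same reads as the replicate lists, this fall is a description of the lists and no independent check. The 100% of the first step also follows a selection for agreement between replicates, the IDR threshold.

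Sequence around the summits also varied over these steps, and no test of the differences was made. Mean GC content within 50 bp of the summit was 49.5% ± 9.50 (SD) in the 11, 36.9% ± 9.90 in the next 100, 33.9% ± 9.19 in the next 400, and 33.1% in both lower steps. AGAGAG was present in 6 of the 11 (54.5%, 28.0 to 78.7), 15% of the next 100 (9.31 to 23.3), 7.5% of the next 400, 6.1% of the next 1000 and 4.65% of the rest. AAAGTT, the core known for MYT1 family proteins, was in none of the 11 (upper bound 25.9%), in 15% of the next 100 (9.31 to 23.3), and in 24.3%, 23.7% and 22.4% of the lower steps. TTAGGC, the telomere repeat unit, was in none of the 11 and in 3%, 2.75%, 3.5% and 3.44% of the others. Repeat-masked bases made up 8.91% of the windows of the 11, 36.3% of those of the next 100 and 43.7% to 46.1% in the lower steps.

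**Figure D3:**
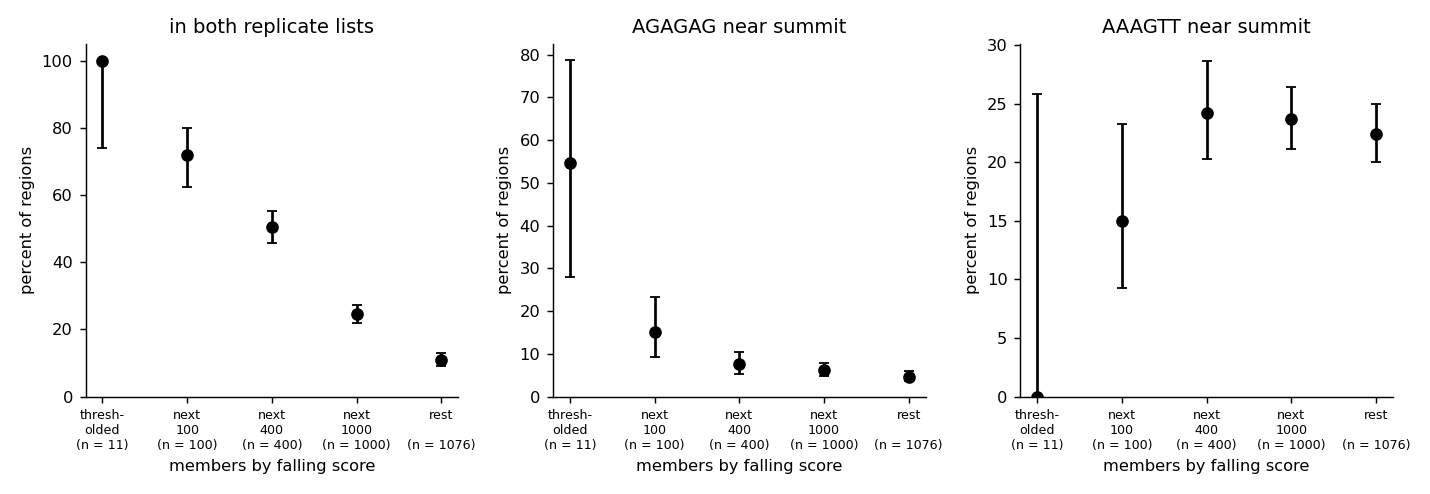
Percent of members (vertical axes) found in both replicate lists, holding AGAGAG and holding AAAGTT within 50 bp of the summit, for members ordered by falling pooled score from the 11 thresholded rows to the remaining 1076. Points are shares and bars 95% Wilson intervals. Presence in both lists falls from 100% in the 11, which were selected on the IDR, to 11.0%. AGAGAG falls from 54.5% to 4.65%, and AAAGTT is at 0% in the 11 and 22.4% in the last step.

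For comparison, AAAGTT was in 22.8% of all members (21.2 to 24.5), in 19.03% of promoter regions (18.1 to 20.04), in 22.04% of introns and in 20.1% of all autosomal regions. AGAGAG was in 6.26% of members, 5.95% of promoter regions, 3.97% of introns and 5.18% of all autosomal regions. GCGCGA was in 1.24% of members (0.878 to 1.74) and 1.97% of promoter regions (1.65 to 2.35), and TTAGGC in 3.32% and 2.53%. GCGTCTC, chosen after the sequences were seen, was in 1.58% of members, 1.77% of promoter regions and 1.39% of all autosomal regions, and in 9.09%, 7%, 2.5%, 1.3% and 0.929% of the members by falling score. All motifs were searched on both strands, AGAGAG and GCGCGA can share 1 base, and a match is a run of letters and no binding site.

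Base composition moved with these motifs and with the thresholded share. Members under 30% GC held AAAGTT in 30.9% of cases and AGAGAG in 1.99%, and the 101 members of 50% GC and over held them in 4.95% and 21.8%. Of the 1003 members under 30% GC 1 overlapped the thresholded set, of the 1026 between 30 and 40% 2 did, of the 457 between 40 and 50% 2 did (0.438%, 0.120 to 1.58), and of the 101 at 50% and over 9 did (8.91%, 4.76 to 16.1). Of the 11 thresholded rows 7 were at 50% GC or over. Median scores in the 4 bands were 11.7, 11.7, 12.1 and 13.2. The part of base composition in the scores was not tested.

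Within GC bands, the intervals of distal intergenic and promoter regions lay apart in 1 of the 4 bands. Between 40 and 50% GC, 45 of 1164 promoter regions overlapped the thresholded set (3.87%, 2.90 to 5.13), above the interval of the members. At 50% and over the promoter share was 11.8% (8.98 to 15.4) and the intron share 10.3% (6.64 to 15.8), both overlapping the interval of the members. The exon share was 1.20% (0.331 to 4.29), below it. The 9 overlapping members of this band include the 7 thresholded rows, and the others are weaker neighbours that touch a thresholded region. An interval on the 7 rows alone was not computed, so the separation from exons may rest on these neighbours. Regions of 50% GC and over made up 3.90% of members and 6.43% of promoter regions.

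**Figure D4:**
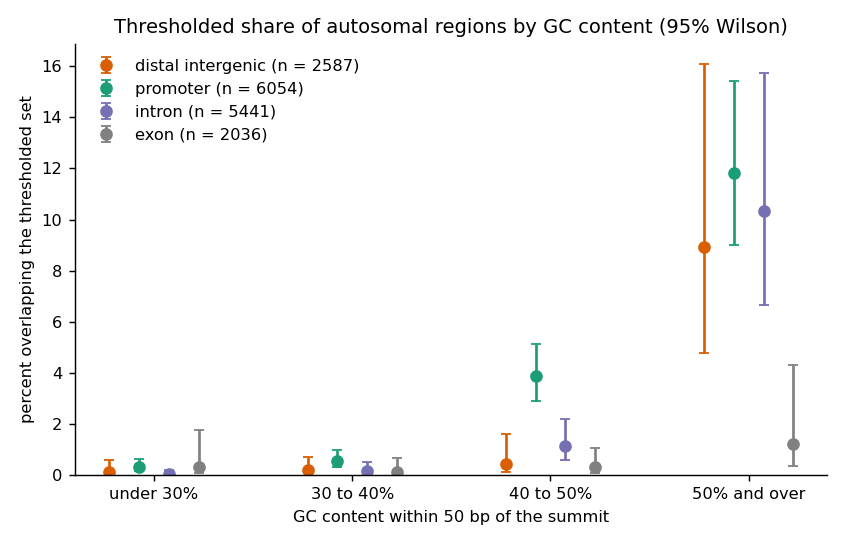
Percent of autosomal regions that overlap the thresholded set (vertical axis) by GC content within 50 bp of the summit (horizontal axis), for distal intergenic, promoter, intronic and exonic regions. Points are shares and bars 95% Wilson intervals. In the band of 50% and over distal intergenic regions are at 8.91%, promoters at 11.8%, introns at 10.3% and exons at 1.20%.

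The mean GC content around the 11 thresholded members stayed high over a longer stretch than around thresholded promoter regions. In windows of 51 bp the mean GC content at the summit was 47.6% ± 3.56 (SEM over 11 regions) for the members and 50.3% ± 1.02 (SEM over 100 regions) for the promoter rows of the thresholded set. At 150 bp to the left and right of the summit it was 47.95% ± 3.36 and 45.99% ± 4.09 for the members, and 34.8% ± 1.14 and 36.2% ± 1.25 for the promoter rows. At 500 bp to the left and right the members were at 32.4% ± 3.64 and 40.1% ± 3.44, where the 2476 lower members were at 34.3% and 34.5%. With 11 regions this profile rests on few sequences, and no test of the difference was made.

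**Figure D5:**
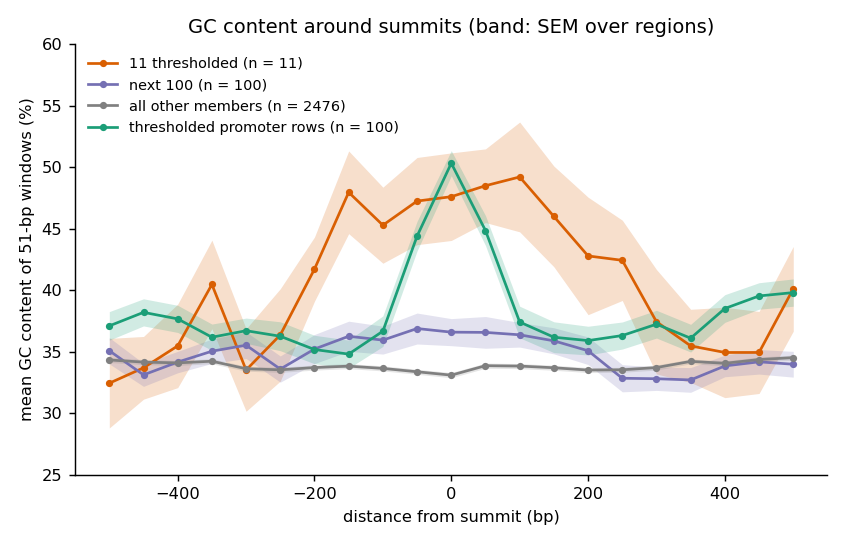
Mean GC content of 51-bp windows (vertical axis, percent) against distance from the summit (horizontal axis, bp) for the 11 thresholded members, the next 100, the other 2476 members and the 100 promoter rows of the thresholded set. Bands are the SEM over regions. Promoter rows fall from 50.3% at the summit to 34.8% and 36.2% at 150 bp, where the 11 members are still at 47.95% and 45.99%.

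Exact copies and tandem repeats at the summit did not hold the strong members. Diverged repeats were not counted here, and the shares of repeat-masked bases are given above. The 50 bases at the summit occurred more than once in the genome for 11 members (0.425%), up to 17 times, with a median score of 10.3 and a maximum of 17.2, and none of these 11 was thresholded. In all other members the summit sequence was present once, and their median score was 11.8. A tandem repeat of at least 80% identity covered the window of 1 member.

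Genes of noncoding RNAs within 200 bp of the summit were counted by kind. They were tRNA genes at 12 members, with a median score of 14.5 and 2 in both replicates, snoRNA genes at 17, with a median of 15.02 and 8 in both replicates, and genes annotated as snRNA at 5, with a median of 9.69 and a maximum of 51.1, among them sls-2.2, sls-2.3 and sls-2.9. MicroRNA genes stood beside 3 members, mir-245, mir-8189 and mir-52, with a median of 11.2, long intergenic noncoding RNA genes beside 8, other noncoding RNA genes beside 114 (4.41%) and pseudogenes beside 42 (1.62%). Medians for the last 3 kinds were 11.4, 12.2 and 11.7, near the 11.8 of all members. No rRNA gene lay within that distance. A piRNA gene lay between 200 and 1000 bp from 152 members (5.88%), with a median score of 12.1. The rule leaves out summits inside any of these genes. The share of allowed sequence within these distances was not computed, so the counts have no reference.

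The strain also expresses ztf-11 from the transgene, and at the locus of ztf-11 extra copies of the DNA cannot be told apart from binding. Within 40 kb of ztf-11 (chrI:9904303-9910545) there were 11 members, where 954 such windows along the autosomes held a mean of 2.70 ± 2.47 (SD), and 9 windows held as many or more. Of these members 9 lay in the gap of 10666 bp between ztf-11 and F52F12.5. Their scores ranged from 9.82 to 25.3 over the 11, none was thresholded, and replicate 1 held 10, replicate 2 held 5 and both held 4. The 3 highest, at 25.3, 24.3 and 22.8, had their summits in a region of replicate 1 alone, with 15.1, 18.2 and 14.6. A neighbour scoring 12.1 overlaps the interval of the highest. This neighbour has the same replicate 1 score, 15.1, and a replicate 2 score of 12.8.

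Genes were grouped into lists by the nearest protein-coding 5′ end, a rule that favours genes with long flanks, so each share of the members is given beside the share of allowed sequence. Neurogenic factors, genes that specify neurons, were nearest to 19 members at 9 of 14 genes, 0.734% of the members and 0.312% of the allowed sequence. Without the members within 40 kb of ztf-11 these fell to 14 members (0.543%), while the sequence share of 0.312% still includes that locus. Their highest entries after ztf-11 were sem-4, at 20.3 and in replicate 1 alone with 11.7, then hlh-2 at 14.5 with 7.16 and 8.08, and ngn-1, the neurogenin gene, at 14.1 with 13.99 and 6.08. None of the 19 was thresholded and 5 were in both replicates.

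Pan-neuronal genes were nearest to 19 members at 11 of 16 genes (0.734% against 0.249% of the allowed sequence), 5 of them in both replicates and none thresholded. The highest were snt-1 at 31.03, unc-31, a regulator of dense core vesicle release, at 23.7 with 18.6 and 8.17, and maco-1 at 19.7 in replicate 2 alone. Neuron identity factors were nearest to 18 members at 9 of 15 genes (0.696% against 0.420%), led by unc-55 at 22.6 with 11.9 and 7.22 and cfi-1 at 21.6 with 9.94 and 14.6. The median scores of the 3 lists were 11.7, 12.6 and 11.5, around the 11.8 of all members. These are counts of few regions, and no test was made of the shares.

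Marker lists of other tissues were short and held little of the allowed sequence, so their counts say little. Epidermis and seam markers were nearest to 0 members, body muscle markers to 1 (lev-11), intestine markers to 2 (asp-1 and cpr-1) and germline markers to 2 (mex-3 and msp-3). These were 0%, 0.0387%, 0.0773% and 0.0773% of the members, and the 4 lists held 0.0736%, 0.0465%, 0.0946% and 0.0351% of the allowed sequence in the same order. Hox and heterochronic genes were nearest to 10 members (0.387% against 0.413%), with lin-42 at 19.2 and lin-29 at 16.9 the highest.

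Among the gene families, neuropeptide and insulin genes were nearest to 42 members at 29 of 106 genes. These were 1.62% of members and 1.55% of the allowed sequence. Of the 42, 3 overlapped the thresholded set, where 14 of all 2587 members did (0.541%). They lay at nlp-40 and ins-13, and at ins-13 a weak neighbour, at 9.67, touched the same thresholded region as the stronger member. The thresholded summits lay beyond the 3′ ends of these genes. Nuclear hormone receptor genes were nearest to 49 members (1.89% against 2.02%), with nhr-88 thresholded and nhr-41 next at 21.9. The ceh homeobox genes were nearest to 16 (0.618% against 0.580%) and ribosomal protein genes to 12 (0.464% against 0.281%). Chemoreceptor genes were nearest to 93 members (3.59% against 4.92%), F-box genes to 15 (0.580% against 1.44%), C-type lectin genes to 16 (0.618% against 0.796%), collagen genes to 9 (0.348% against 0.629%) and histone genes to 1 (his-4).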

How the data were processed

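Per the labels, ZTF-11 was immunoprecipitated from whole L2 larvae in 2 biological replicates, grouped by the biological replicate number. Per the file headers (the deposited text notes), regions were called by the authors on the ce11 alignments of each replicate and of both pooled, each with a control, and the IDR thresholded set was derived from these lists. No aligner, caller, version or IDR threshold was given in the sources used here. Each replicate list held 30000 regions, the pooled list of peaks and background 20223 and the thresholded set 210. The deposited score is the authors' signal value, which served to order and describe the regions of a list. Replicate scores were also set side by side at the same members, and since each list has its own scale, their ratios and the counts of which replicate was higher may reflect the scales. The deposited −log10 q was not used, nor were the ce10 lists. Depth per sample is unknown.

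Summits were classified with the Ensembl release 115 annotation of WBcel235. A member was in a replicate when its summit lay in a region of that list, and the highest score was taken where several did. Motifs, GC content and copies were read from RefSeq sequence within 50 bp of the summit, 101 bases in all. Shares have 95% Wilson intervals, and no test over regions was made. Helper functions were tested on simulated data. Named regions were those that overlap the thresholded set, the next 15 by score, the 5 of these farthest from a gene, and up to 4 genes from each of 17 lists. Members and lists were chosen with earlier results of these data known. The software was Python 3.11.15 with matplotlib 3.10.9, scipy 1.17.1, pandas 2.3.3 and numpy 2.4.6. Alternatives covered the promoter window, the piRNA distance, the overlap, each replicate alone and the motif window.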

Additional observations from a re-analysis of the deposited data

How the results depend on the processing

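The share of members in the thresholded set was 0.309% when only the upper part of that set by score was used. Moving the promoter edge to 2500 bp left 1872 members, of which 7 overlapped the thresholded set against 14, and moving it to 1000 bp gave 3118 members and 20. With each replicate alone the median score ran from 6.66 to 7.997, on the scale of that replicate, and the share of members in the top 210 regions of that replicate from 0.580% to 0.773%. Members in both replicates were 36.8% with any overlap of 1 bp, and 5.76% when the strongest 10000 regions of each replicate were used. Windows of 25 and 100 bp around the summit gave AAAGTT in 11.8% and 39.9% of members, GCGCGA in 0.657% and 2.55%, AGAGAG in 3.44% and 12.1%, and TTAGGC in 1.51% and 6.15%, by their length. The other alternatives, those added after seeing the data (without members within 40 kb of ztf-11, over 1000 bp from any coding gene, and with a summit in 1 copy) included, moved the member count by less than 1.5 times and the other values little. Taking the midpoint or merging equal intervals changed nothing by construction.

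No paired analysis was possible because there was 1 group and no contrast. Depth is unknown, so the scores carry no counting error, and a whole larva averages over tissues. Each replicate list stops at 30000 regions, so absence from a replicate list is no absence of binding.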
